A study of Rattus norvegicus with 21 samples.

Results

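The comparison is that of diethylstilbestrol (DES) against control in the anterior pituitary of male Brown Norway (BN) rats. Its members are the 7 BN arrays of a series of 21, namely the 4 titled DES-treated and the 3 titled control. Control rats carried an empty silastic implant and treated rats an implant with 5 mg of DES, a synthetic estrogen, both inserted at 9 weeks of age. All rats were killed at 21 weeks and had received BrdU, a label of dividing cells, at 50 mg/kg 4 hours before. The other 14 arrays are the same groups of ACI and Copenhagen (COP) rats, which are used below only to show where BN differed. Each array was taken as 1 rat. The design text of the series counts 3 and 4 biological replicates per group, whereas each sample's own description gives 1 fewer independent replicate per group, and the study describes the glands as those of individual rats. Where arrays shared a gland the p values below would measure technical spread only.

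Estrogens act on the anterior pituitary through the estrogen receptor. They drive prolactin synthesis and the growth of lactotrophs, the prolactin-secreting cells, and they hold back the gonadotrophs, which make luteinizing and follicle-stimulating hormone. Strains of rat differ in how far the gland grows under prolonged estrogen, and BN is a strain in which such growth is slight. The gland also holds somatotrophs (growth hormone), thyrotrophs (thyrotropin), corticotrophs (proopiomelanocortin) and nonendocrine cells that include folliculostellate cells, vessels and leukocytes. In such bulk tissue, fewer cells of a type and less RNA per cell cannot be told apart.

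The array gives 1 signal per probe set, a group of short probes that stands for a transcript. Most defining genes of the tissue were bright, with signals over 10000 for Prl, Gh1, Cga and Tshb on every BN array. The exception was Pomc, with a control mean of 306.7. The neural lobe genes Avp and Oxt had group means under 77.0. This is the lowest 40th percentile of the signal on a BN array, below which a level is near the floor. DES replicates 3 and 4 stood apart from DES replicates 1 and 2. Their highest signals were 71813.9 and 57933.2, against 35966.9 and 36523.3 on DES replicates 1 and 2 and 28535.1 to 31425.8 on the controls. The cre spike-in, RNA that is added in a fixed amount to each hybridization, read 22108.7, 23656.5 and 25842.7 on the controls and 30390.9, 28940.2, 60932.7 and 40646.2 on DES replicates 1 to 4, a log2 difference of 0.69, and those of the other 4 spike-in probe sets were 0.58 to 0.82. The 3′ to 5′ ratio of beta-actin, a sign of RNA integrity, was 3.68, 3.15 and 7.24 on the controls and 2.61 to 3.52 on the DES arrays. The part of these shifts in the results was not tested. The spike-in differences and the higher DES replicates 3 and 4 are given again beside some genes, whereas the beta-actin ratio is not.

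DES changed a large share of the measured transcripts in BN. Of 31042 probe sets, 7012 (22.6%) passed at an adjusted p under 0.05 in limma, 3004 of them higher (9.68%) and 4008 lower (12.9%) with DES. Taking 1 probe set for each of 14217 genes, 1918 genes rose (13.5%) and 2499 fell (17.6%). That is 31.1% in all and the background for every list below. The 35 lists were chosen with earlier results of these data known, so their counts and directions are no independent evidence. The control and DES arrays did not overlap for 5244 genes (36.9%), 2237 of them higher (15.7%) and 3007 lower (21.2%). A change of at least 2-fold, after 16 was added to every signal, was seen for 621 genes that rose and 844 that fell, and the steepest changes were rises, with 18 genes at least 16 times higher and 6 at least 16 times lower. The median log2 change of all genes was -0.016.

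The 12 largest rises included secreted peptides, enzymes and calcium-binding proteins. Klk1b3, a glandular kallikrein protease, led them with control signals of 112.6, 54.1 and 52.2 and DES signals of 12298.8, 11436.3, 12212.5 and 12850.5. Gal, which encodes the neuropeptide galanin, had 173.2, 167.5 and 168.7 in controls and 18279.3, 18546.6, 23385.4 and 25618.3 with DES. The ratio of mean signals was 167 for Klk1b3 and 126 for Gal, with log2 changes of 7.17 ± 0.183 and 6.84 ± 0.164 (SE, n = 3 and 4; limma adjusted p = 8.6e-18 and 4.3e-18). Kallikreins form a family of near-identical genes, so the share of each member in the Klk1b3 signal is uncertain. Guca2b, which encodes the gut peptide uroguanylin, went from 45.1 to 65.2 in controls to 6183.8 to 7517.3 with DES. S100g, the vitamin D-dependent calcium-binding protein calbindin-D9k, had 147.5, 238.8 and 33.3 in controls and 7223.8, 8101.7, 24078.8 and 20461.2 with DES. Its DES signals were highest on replicates 3 and 4, which were the arrays that stood apart, and even the lowest was far above the controls.

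The rest of the 12 were Cgref1 (log2 change 5.96), Pvalb (5.46, the calcium buffer parvalbumin), LOC102556108 (5.25, an unnamed locus), Hmcn2 (5.23), Greb1 (5.11, an estrogen receptor cofactor and classical estrogen target), Grik1 (5.07, a kainate receptor subunit), Ecel1 (4.91, a membrane peptidase) and Rln1 (4.47, the hormone relaxin). For 9 of the 12 the control mean lay near the floor, so the size of those rises is uncertain, though their DES means did not. All 12 remained called under the 20 alternative settings tried, on numbers 1 and 2 alone and on numbers 3 and 4 alone. They also rose in both ACI and COP. The exact permutation test gave p = 0.0286 for each, the smallest that 35 splits of 3 and 4 arrays allow. All 12 were picked for groups that do not overlap on these same arrays, so this p adds no support.

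**Figure D1:**
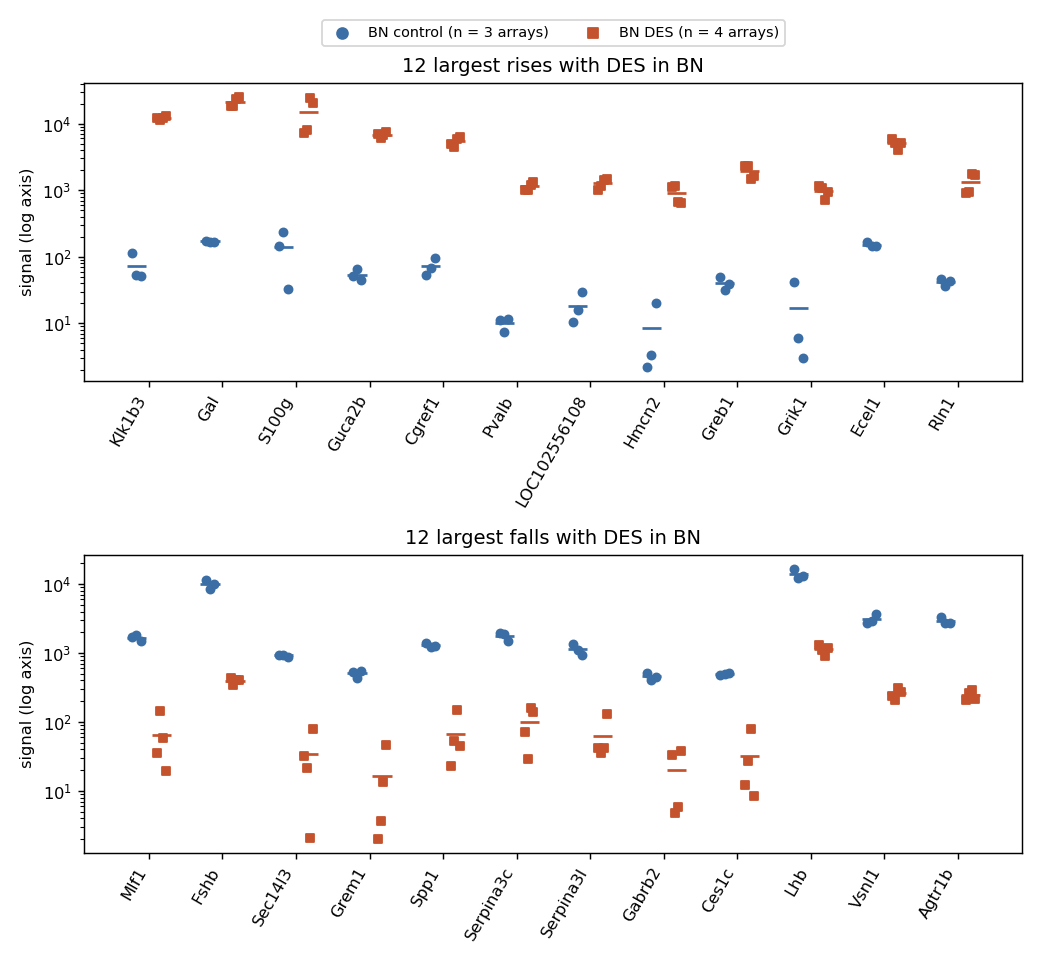
Signal on each of the 7 BN arrays (log axis) for the 12 genes with the largest rises and the 12 with the largest falls. Points are arrays and bars are group means. The 3 control and 4 DES values do not overlap for any of the 24 genes, which was a condition for picking them.

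The 12 largest falls held the pituitary gonadotropin genes, a growth factor antagonist and a receptor of angiotensin. Mlf1, myeloid leukemia factor 1, read 1720.3, 1817.4 and 1502.1 in controls and 35.1, 141.8, 58.7 and 19.2 with DES, a log2 change of -4.64 ± 0.404 (limma adjusted p = 1.12e-08). Grem1, a secreted antagonist of bone morphogenetic proteins, went from 440.5 to 542.0 in controls to 2.0 to 47.0 with DES. Spp1, the matrix phosphoprotein osteopontin, went from 1226.6 to 1412.8 to 23.2 to 150.2. Each of the 3 genes was well measured in controls and had a DES mean near the floor, so the size of these falls is uncertain. Agtr1b, an angiotensin II receptor of lactotrophs, stayed measurable at 208.5 to 291.5 with DES against 2685.7 to 3301.9 in controls (log2 change -3.49, limma adjusted p = 5.76e-12). Vsnl1, the calcium sensor visinin-like 1, did so too, at 209.9 to 313.5 against 2705.3 to 3624.2.

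The other falls were Fshb and Lhb, described next, and Sec14l3 (log2 change -4.49), Serpina3c (-4.13) and Serpina3l (-3.99), closely related serine protease inhibitors whose signals may be shared, Gabrb2 (-3.84, a GABA receptor subunit) and Ces1c (-3.64, a carboxylesterase). The DES mean was near the floor for 7 of the 12. All 12 were called under all 20 alternatives and fell in ACI and COP as well.

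Among the genes of the pituitary hormones, the gonadotropin beta subunits fell steeply, whereas the other subunit and hormone genes moved by less than 2-fold. Fshb, the follicle-stimulating hormone beta subunit, had signals of 11520.4, 8551.8 and 10193.1 in controls and 434.0, 342.7, 401.5 and 399.6 with DES. Lhb, the luteinizing hormone beta subunit, had 16831.9, 12337.1 and 13066.7 in controls and 1329.3, 1094.6, 920.6 and 1202.7 with DES. Mean signal was 25.6 times lower for Fshb and 12.4 times lower for Lhb (log2 changes -4.62 and -3.61, limma adjusted p = 1.26e-17 and 2.02e-15). Both falls were shallower in BN than the mean of ACI and COP, by 0.89 for Fshb and by 2.20 for Lhb on the log2 scale (adjusted p = 0.000461 and 1.44e-08 for the difference). With DES, mean Lhb signal was 1136.8 ± 173 in BN against 229.9 ± 22.6 in ACI and 356.1 ± 23.5 in COP (SD, n = 4 each).

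Prl, which encodes prolactin, had 27023.7, 26121.2 and 29678.8 in controls and 35966.9, 36523.3, 68841.3 and 53747.5 with DES. Gh1, growth hormone, had 20518.5, 23638.0 and 26224.7 in controls and 35951.3, 32920.3, 61190.2 and 48691.5 with DES. Cga, the alpha subunit shared by the gonadotropins and thyrotropin, had 23973.6, 25163.6 and 26346.0 in controls and 32913.8, 32734.2, 60341.9 and 48159.5 with DES. All DES arrays were above all controls for the 3 genes, as for 15.7% of all genes, and replicates 3 and 4 were the highest. The log2 changes were 0.77 for Prl, 0.89 for Gh1 and 0.74 for Cga (limma adjusted p = 0.00499, 0.00152 and 0.00543), sizes close to the 0.69 of the cre spike-in, whose 4 DES arrays had the same order of replicates 3 and 4 above 1 and 2. With quantile normalization, which gives every array the same distribution, the changes were 0.06, 0.17 and 0.01 and were not called (adjusted p = 0.591, 0.186 and 0.952). Prl was itself the highest signal on DES replicates 1 and 2. Quantile normalization gives the top ranks the same values on every array, so it could show little change for genes this bright. The exact permutation p was 0.0857, 0.0571 and 0.0857, and the calls of Prl and Cga were also lost when only the BN arrays were fitted (adjusted p = 0.0695 and 0.0675).

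Tshb, the thyrotropin beta subunit, read 25790.9, 27052.3 and 26729.1 in controls and 26141.5, 22796.2, 41134.4 and 30434.2 with DES, so the groups overlapped (log2 change 0.15, 95% interval -0.22 to 0.52, adjusted p = 0.62). Quantile normalization turned this to a called fall of 0.59 (adjusted p = 0.000192). In ACI and COP the gene fell by 2.11 and 1.65, and the BN response lay 2.03 above their mean (95% interval 1.58 to 2.48, adjusted p = 2.65e-06). Pomc, the precursor of adrenocorticotropin, had 217.2, 373.4 and 329.4 in controls and 143.0, 115.3, 165.1 and 230.2 with DES. The groups overlapped, and the change of -0.85 (-1.92 to 0.22) did not pass (adjusted p = 0.272). Its only probe set read far below those of the other hormone genes in controls, and how well it measures Pomc was not tested.

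**Figure D2:**
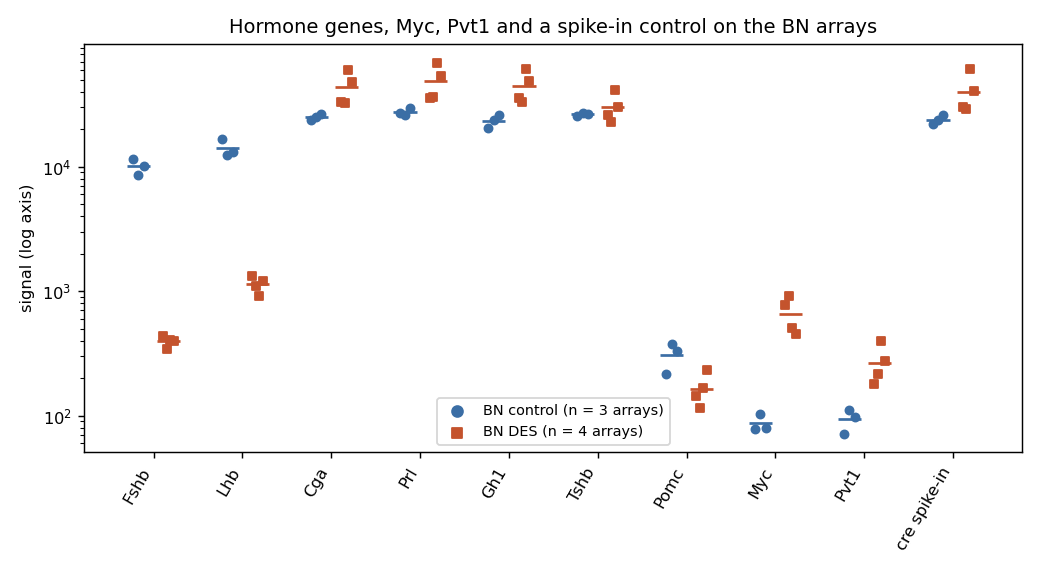
Signal on each BN array (log axis) for the 7 hormone genes, Myc, Pvt1 and the cre spike-in, with bars at the group means. Fshb and Lhb fell on every DES array, whereas Prl, Gh1, Cga and the spike-in share a pattern in which DES replicates 3 and 4 read highest.

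The receptors and regulators of each hormone cell did not move as a block. Among 10 lactotroph markers, 2 rose and 3 fell, with a median log2 change of -0.21. Trhr, the receptor through which thyrotropin-releasing hormone acts on lactotrophs and thyrotrophs, rose from 2294.1 to 3002.1 in controls to 5309.0 to 8699.7 with DES (log2 change 1.36, adjusted p = 3.99e-06). Prlr, the prolactin receptor, fell by 2.04 and Pou1f1, the transcription factor of lactotrophs, somatotrophs and thyrotrophs, by 0.59. Drd2, the dopamine receptor that restrains prolactin, had a change of -0.35 that did not pass (adjusted p = 0.135), though it did without DES replicate 1 or 2 (adjusted p = 0.039 and 0.0206). Esr1, which encodes estrogen receptor alpha, was near the floor on both sides, at 5.1 to 132.0 in controls and 25.2 to 92.1 with DES. Its probe set therefore gave no usable level here.

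Of 15 gonadotroph markers, 4 fell and 2 rose, the rises being lost under quantile normalization and in a fit of the BN arrays alone. Gnrhr, the receptor of gonadotropin-releasing hormone, fell by 1.37 and Gata2, a transcription factor of gonadotrophs and thyrotrophs, by 1.84, whereas Cga and the granin Scg2 (0.54) were the risers. In 13 of the 15 the BN response lay above the mean of ACI and COP, and 7 of those differences were called, against a background of 6.2% of genes with BN above (4 without control replicate 2, 5 to 8 otherwise). Gnrhr was one of them, with log2 changes of -3.38 in ACI and -2.37 in COP and a difference of 1.5 (adjusted p = 0.000805). Of 8 somatotroph markers, 5 fell and 2 rose (2 fell on numbers 3 and 4 alone). Ghrhr, the growth hormone-releasing hormone receptor, fell by 1.23, Sstr5 by 2.08 and Pappa2, a protease of insulin-like growth factor binding proteins, by 2.59, while the somatostatin receptor Sstr2 rose by 1.15, with 1 control, at 277.7, above the lowest DES array, a call lost without control replicate 1 or 3 (adjusted p = 0.0945 and 0.084). The other riser was Gh1.

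Of 7 thyrotroph markers, 3 rose (Trhr, Cga and the thyroid hormone receptor Thrb, 0.47) and 2 fell (Gata2 and Rxrg, -1.12). The call of Thrb was lost without control replicate 1 or 2 (adjusted p = 0.105 and 0.0643), and fitted on the BN arrays alone, 1 member rose and 2 fell. Of 6 corticotroph and melanotroph markers, Avpr1b, the vasopressin receptor of corticotrophs, fell from 875.0 to 1147.8 to 205.8 to 358.4 (log2 change -1.83), and Tbx19 (-0.94) and the glucocorticoid receptor Nr3c1 (-0.79) fell with it, while the prohormone convertase Pcsk2 rose by 1.52 and Neurod1 by 1.03. Numbers 3 and 4 alone gave 1 rise and 2 falls. Of 10 transcription factors of the pituitary lineage, Six6 (-1.09), Eya1 (-1.53) and Pou1f1 fell, and Lhx2 passed while its signal stayed near the floor in both groups. The Lhx2 call was lost under 11 of 20 alternatives, among them leaving out control replicate 1 or 3 or any 1 of the DES arrays (adjusted p = 0.0529 to 0.149).

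Of 12 folliculostellate and stem cell markers, 6 fell and 1 rose, and their median log2 change was -0.56. Aldh1a1, a retinaldehyde dehydrogenase, had 7125.1, 6579.0 and 6718.4 in controls and 1392.1, 1226.6, 1121.3 and 1061.7 with DES, a log2 change of -2.49 (adjusted p = 2.38e-12). Sox2, the stem cell factor, fell by 1.42, Anxa1 by 1.19 and the gap junction gene Gja1 by 0.90, whereas the chemokine gene Cxcl12 rose by 0.91. The summed signal of the list ran from 36382.2 to 39437.0 on controls and from 25515.0 to 27810.7 on DES arrays, with no overlap. That of all genes did not overlap either, but was higher with DES (14254159.7 to 14786058.9 on controls, 15348240.6 to 18218707.5 on DES arrays). For Aldh1a1 the fall was smaller in BN than in ACI (-4.83) and COP (-4.19), by 2.02 (adjusted p = 3.86e-08).

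Peptide genes moved both ways. Of 20 neuropeptide and small peptide genes, 6 rose and 2 fell, with 10 of the 20 near the floor in 1 or both groups. Beside Gal and Guca2b, Calcb, which encodes a calcitonin gene-related peptide, rose from 46.7, 75.8 and 34.6 to 469.4, 629.3, 483.6 and 828.9. Its log2 change was 3.19 in BN, -0.28 in ACI and 1.22 in COP, a difference of 2.72 (adjusted p = 2.7e-05). Vip, vasoactive intestinal peptide, rose from 87.0 to 101.0 to 384.4 to 598.3, and Nppc, C-type natriuretic peptide, from 106.8 to 159.7 to 407.0 to 826.4. Penk, the enkephalin precursor, fell from 4733.5 to 4863.1 to 1084.9 to 1522.0, and Nmu, neuromedin U, fell by 1.45.

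Granins and the enzymes that cut prohormones went mostly up, with 6 of 11 higher and 2 lower. Vgf rose from 198.6 to 286.2 to 1258.6 to 3175.1 (log2 change 3.20) and Pcsk2 from 788.1 to 910.0 to 1701.6 to 3272.5. Chga, chromogranin A, fell from 8996.2 to 10170.0 to 1947.2 to 2231.3 (log2 change -2.19, adjusted p = 3.33e-13), and Pcsk1n, which inhibits prohormone convertase 1, by 0.85. Chgb (0.61), Cpe (0.63) and Scg2 (0.54) moved by amounts near the spike-in differences of 0.58 to 0.82, and under quantile normalization their changes were -0.12, -0.12 and -0.23 and were not called. The call of Scg2 was also lost without control replicate 2 (adjusted p = 0.0589). When only the BN arrays were fitted, 3 members rose and 2 fell, and under quantile normalization 2 rose and 4 fell.

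Genes known to answer estrogen were measured as a list of 20, of which 10 rose and 3 fell (8 to 10 and 2 to 3 over the alternatives). Their median log2 change was 0.51 against -0.016 over all genes. Part of this list was written with the earlier results in view, so its direction is no independent evidence. Klk1b3, Gal, Cgref1 and Greb1 stood among its risers. Pgr, the progesterone receptor, rose from 182.0, 138.2 and 72.2 to 1165.1, 1117.3, 612.4 and 596.7 (log2 change 2.61), and Nrip1, a nuclear receptor corepressor, by 1.43. Ret, a receptor tyrosine kinase, fell from 103.9 to 143.4 to 2.4 to 21.5, and Ptgds, a prostaglandin D synthase, from 1407.6 to 1808.3 to 235.8 to 349.6. Myb also fell (-1.13), a call that 9 of the 20 alternatives did not keep, among them leaving out any 1 of the controls, DES replicate 2 or DES replicate 3 (adjusted p = 0.0642 to 0.105). Of 14 steroid receptors and coregulators, 3 rose (Greb1, Pgr and Nrip1) and 4 fell, among them the mineralocorticoid receptor Nr3c2 (-2.24) and the coactivator Ncoa1 (-1.96). Nrip1 rose more in BN than in ACI (0.33) and COP (0.56), by 0.98 (adjusted p = 0.00226).

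Genes of protein folding in the endoplasmic reticulum, the compartment in which secreted proteins mature, mostly read higher with DES. Of 24 measured, 17 rose and 1 fell, and the median log2 change was 0.57 (0.15 under quantile normalization, which was the lowest of the alternatives, and at most 0.65), a size near the spike-in differences of 0.58 to 0.82. The part of that shift in the list was not tested. Sec61a1, the channel through which new proteins enter the compartment, had 1829.2, 1848.0 and 1815.9 in controls and 4291.1, 4317.0, 4826.7 and 5561.3 with DES (log2 change 1.36, adjusted p = 4.22e-09). Dnajc3, a cochaperone, rose from 2128.5 to 2556.3 to 4024.4 to 5414.9, and Manf, P4hb and Xbp1 by 0.60, 0.64 and 0.63, P4hb not under quantile normalization (0.12, adjusted p = 0.302). Ddit3, which encodes the stress factor CHOP, moved against the list and fell from 1326.3 to 1802.6 to 648.5 to 885.0 (log2 change -1.10, adjusted p = 2.29e-06). Quantile normalization left 9 higher and 3 lower, and the fit of the BN arrays with the replicate number as a block left 8 and 1. In 9 genes the BN response was called below the mean of ACI and COP, and in none above (background 6.11% below).

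The known element of this pathway, to which the factors that sense unfolded proteins bind, was looked for in the promoters because the genes moved together. The letters searched were CCAAT and CCACG with any 9 bases between them, on both strands, in the 250 bases before and 50 after each RefSeq start site of the GRCr8 build. Of the 24 genes, 19 had a promoter entry and 7 of these held a match (36.8%), against 22 of all 33469 entries (0.0657%). Matches are counted by gene for the list and by entry for the background. The list was made of genes of the pathway to which the element belongs, so its share says nothing about DES. The windows of 60 bases are printed 5′ to 3′ on the strand of the gene, with the match in capitals.
Hspa5, chr3:38452952-38453011, plus strand: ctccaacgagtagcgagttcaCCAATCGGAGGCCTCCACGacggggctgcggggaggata
Xbp1, chr14:84604537-84604596, plus strand: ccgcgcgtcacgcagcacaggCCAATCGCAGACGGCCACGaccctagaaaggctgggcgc
Dnajc3, chr15:102432513-102432572, plus strand: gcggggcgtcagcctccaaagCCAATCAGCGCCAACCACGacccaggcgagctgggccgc
Hsp90b1, chr7:23012431-23012490, minus strand: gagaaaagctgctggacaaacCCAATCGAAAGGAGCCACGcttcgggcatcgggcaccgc
Canx, chr10:35158048-35158107, minus strand: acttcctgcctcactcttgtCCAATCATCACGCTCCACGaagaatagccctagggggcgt
Creld2, chr7:121789218-121789277, plus strand: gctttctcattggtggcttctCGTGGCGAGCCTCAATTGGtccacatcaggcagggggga
Calr, chr19:40213117-40213176, plus strand: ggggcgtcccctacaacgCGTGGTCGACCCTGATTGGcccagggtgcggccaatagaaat
In Creld2 and Calr the match lies on the opposite strand, so its reverse complement is shown. A match is a description of the letters and not a site of binding.

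The 7 genes with the match had log2 changes of 0.39 to 0.99 with a median of 0.57, and 6 of them rose. Hspa5, Hsp90b1 and Canx were not called higher under quantile normalization. Hspa5, the chaperone BiP, had 18841.3, 17551.8 and 18685.7 in controls and 22055.7, 22258.2, 32186.4 and 24743.5 with DES (log2 change 0.45, adjusted p = 0.0151). Its call was lost without control replicate 2 (adjusted p = 0.0654), on the BN arrays alone (0.133) and on numbers 1 and 2 or 3 and 4 alone (0.0657 and 0.0513), and under quantile normalization Hspa5 was called lower (-0.31, adjusted p = 0.0131). Creld2 rose by 0.58, Hsp90b1 by 0.49 and Canx (calnexin) by 0.57. Another Canx probe set, with means of 8272.8 in controls and 8522.7 with DES, did not pass (0.03, adjusted p = 0.9). The remaining Canx probe set rose by 0.66 (adjusted p = 0.0261). Quantile normalization gave -0.1 for Hsp90b1 and 0.23 for Canx, neither of them called (adjusted p = 0.596 and 0.0576), and a fit of the BN arrays with the replicate block lost both as well (adjusted p = 0.0979 and 0.0967). The gene that did not pass was Calr, calreticulin, at 6596.7 to 7150.2 in controls and 6703.9 to 11233.4 with DES (adjusted p = 0.0921). With the replicate block Calr was called higher (0.48, adjusted p = 0.00534), as it was without DES replicate 4 (0.54, adjusted p = 0.0166). Of the 12 genes with a promoter entry and no match, 6 rose, with a median of 0.40. The 5 genes without a promoter entry all rose, with a median of 0.61. The estrogen response element, GGTCA and TGACC with any 3 bases between them, was found in none of the promoters of the 9 genes with an entry among the 12 largest rises, and in 9 of 33469 entries (0.0269%), so these letters are rare in such windows.

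**Figure D3:**
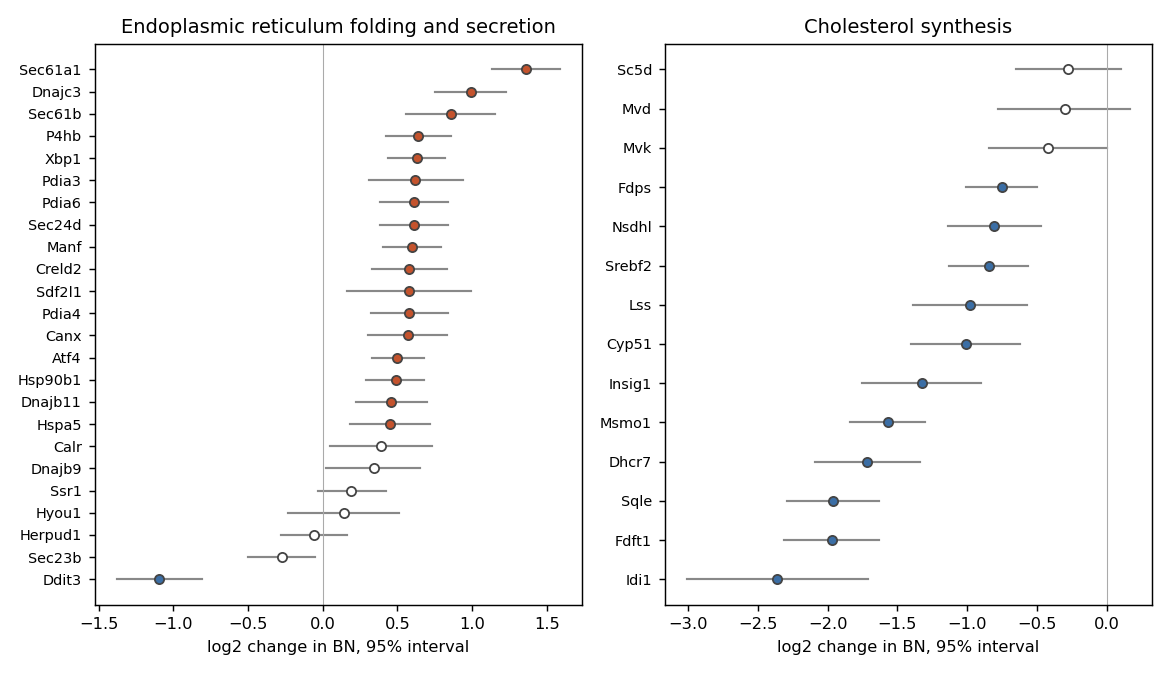
Log2 change in BN with its 95% interval for 24 genes of endoplasmic reticulum folding and secretion and 14 genes of cholesterol synthesis. Filled points passed at an adjusted p under 0.05 (red higher, blue lower) and open points did not. The folding genes lie mostly above 0, by sizes near the spike-in differences of 0.58 to 0.82, with Ddit3 the exception that passed, and all cholesterol genes lie below 0.

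Genes of cholesterol synthesis fell as a group. Of 14 measured, 11 fell and none rose, with a median log2 change of -1.0, and 11 or 12 fell under every alternative. Idi1, isopentenyl diphosphate isomerase, had 2914.1, 1135.2 and 3371.3 in controls and 345.4, 437.4, 470.8 and 451.6 with DES (log2 change -2.36, adjusted p = 5.27e-06). Control replicate 2 was the lowest control for Idi1, Insig1 and Fdft1, and still above every DES array. Fdft1 and Sqle, enzymes of squalene, fell by 1.97 and 1.96, Dhcr7 by 1.72 and Msmo1 by 1.57. Insig1, the sterol-sensing regulator, fell by 1.32. For no member was the difference from ACI and COP called, and under the alternatives at most 2 were.

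Of 18 retinoid genes, 7 fell and 1 rose, and 3 rose without DES replicate 4. Rarb, retinoic acid receptor beta, fell from 538.8 to 577.7 to 106.0 to 204.6, and Aldh1a1, Rxrg, Dhrs3 (-0.78) and the carrier Rbp4 (-0.73) fell too. Cyp26b1, which degrades retinoic acid, rose by 0.97, a call lost without control replicate 1 (0.66, adjusted p = 0.0878). Of 21 respiratory chain genes, 8 rose and 2 fell, by at most 0.85 upward (Ndufa1) and 0.98 downward (Sdha). Quantile normalization left 2 higher and 4 lower. The rises numbered 3 without control replicate 1 and 5 without control replicate 3, DES replicate 3 or DES replicate 4.

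Genes of cell division showed little net movement in BN. Of 26 mitosis genes, 4 rose and 2 fell, set against the background of 31.1% of all genes. Mki67, the proliferation antigen Ki-67, had 241.5, 118.9 and 277.6 in controls and 142.6, 149.8, 88.0 and 73.8 with DES. The groups overlapped, and the log2 change of -0.79 (adjusted p = 0.031) was lost under 8 of 20 alternatives, among them leaving out control replicate 1 or 3 or DES replicate 3 or 4. Aurkb, an Aurora kinase, fell from 482.4 to 637.8 to 146.6 to 245.7 (log2 change -1.38). Cks2, a cyclin-dependent kinase subunit, rose from 103.5 to 111.4 to 188.1 to 385.0 (1.14), and Ube2c (0.67), Ccnb2 (0.51) and Plk1 (0.96, near the floor) passed with calls that 6, 11 and 10 of the 20 alternatives did not keep. Ube2c was lost without control replicate 3 or DES replicate 3 or 4 (adjusted p = 0.0754 to 0.201), and Plk1 without control replicate 1 or 2 or DES replicate 1, 2 or 3 (adjusted p = 0.0612 to 0.307). Ccnb2 was lost under the replicate block (adjusted p = 0.0603) and without any 1 of the controls or DES replicate 3 or 4 (adjusted p = 0.0638 to 0.161), and 1 gene rose without DES replicate 3 and 2 without any 1 of the controls or DES replicate 4.

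The difference from the other strains was in 1 direction for the whole mitosis list. All 26 genes had a response in BN below the mean of ACI and COP, and 17 of these differences were called (background 6.11%). The median difference was -1.30 on the log2 scale. Of the 26, 11 were near the floor in 1 or both BN groups. The median changes of the list were 0.32 in BN, 2.04 in ACI and 0.91 in COP. On numbers 1 and 2 alone 15 were called, on numbers 3 and 4 alone 4, and leaving out a BN array gave 14 to 18. Mki67 signal was 113.5 ± 38.3 in DES-treated BN rats against 662.6 ± 49.2 in ACI and 334.0 ± 43.3 in COP (SD, n = 4 each), while its controls read 212.7 ± 83.2, 110.1 ± 35.1 and 94.47 ± 14.1 (SD, n = 3 each). The difference was -2.86 (95% interval -3.52 to -2.20).

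Of 24 DNA replication genes, 2 rose (Mcm7, 0.67, and Rfc3, 0.82) and 4 fell, among them the helicase subunits Mcm2 (-0.96) and Mcm6 (-1.12), and 4 differences lay below and none above ACI and COP. Without control replicate 2, 2 of them fell. Of 15 inhibitors of the cycle and growth brakes, Cdkn2c rose by 0.93, Cdkn1b by 0.33 and Cdkn1a by 0.68. The call of Cdkn1b was lost under quantile normalization (0.04, adjusted p = 0.842) and without control replicate 3 (0.2, adjusted p = 0.148), and that of Cdkn1a on the BN arrays alone (adjusted p = 0.105) and without control replicate 1 or 2 or DES replicate 4 (adjusted p = 0.08 to 0.114). In the same list, Gadd45a (-1.56) and Cdkn1c (-0.87) fell, and 5 members fell without DES replicate 1. Of 12 apoptosis genes, Bcl2l11 (0.78) and Bid (0.67) rose and Xiap (-0.49) fell.

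Myc and Pvt1 lie in the Ept7 interval, a region of rat chromosome 7 that was mapped for its effect on pituitary growth under estrogen. Myc had 78.6, 103.4 and 79.3 in controls and 773.9, 913.6, 501.3 and 451.5 with DES, a 7.58-fold ratio of mean signals (log2 change 2.66 ± 0.246, adjusted p = 2.77e-08). Pvt1, a noncoding transcript beside it, had 71.2, 111.2 and 98.0 in controls and 178.1, 214.6, 398.5 and 273.6 with DES (log2 change 1.32, adjusted p = 0.000843, and 0.0542 on numbers 1 and 2 alone). Neither group pair overlapped, as was so in this direction for 15.7% of all genes. The exact permutation p was 0.0286 for both, the smallest that the test allows. The Myc values were higher on DES replicates 1 and 2 and the Pvt1 values higher on 3 and 4. A1bg was near the floor, at 3.6 to 19.6 and 4.7 to 53.8, and did not pass. The BN responses were not separable from those of ACI and COP, with differences of 0.44 for Myc (adjusted p = 0.465) and -0.18 for Pvt1 (adjusted p = 0.837).

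Of 19 growth genes that Myc is known to regulate, 6 rose and 3 fell (3 to 8 and 1 to 5 over the alternatives, with 1 fall without any 1 of the controls, DES replicate 3 or DES replicate 4). Nop56, a nucleolar protein, rose from 1584.0 to 2127.1 to 6727.8 to 7358.8 (log2 change 1.92), Srm, spermidine synthase, by 1.52 and Ldha, lactate dehydrogenase A, by 1.46. Odc1, the polyamine enzyme, rose by 0.38, less than in ACI (1.37) and COP (1.15, adjusted p = 2.23e-05 for the difference). The Odc1 call in BN was lost under quantile normalization (0.2, adjusted p = 0.0965) and on the BN arrays alone (adjusted p = 0.0665). Ccnd2, cyclin D2, fell by 0.80. Of 17 immediate early genes, Nr4a2 (2.05), Junb (1.73), Ier3 (0.78) and Jund (0.55) rose and none fell, and 12 rose on numbers 1 and 2 alone. Fos had 788.1, 303.6 and 720.7 in controls and 1604.1 to 1987.7 with DES, and its change of 1.63 did not pass (adjusted p = 0.0612), though it did on the BN arrays alone (adjusted p = 0.00327).

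Endothelial markers moved little as a group, and their summed signal was 3780.3 to 5070.5 in controls and 4965.4 to 6160.8 with DES. Of 12 endothelial markers, Kdr, the main receptor of vascular endothelial growth factor, rose by 0.93 and Egfl7 by 1.58, and 10 did not pass, with Vwf near the floor in both groups. The log2 change of Kdr was -0.49 in ACI and 0.03 in COP, a difference of 1.16 (adjusted p = 0.000104). Of 13 angiogenesis factors, Hif1a (1.41), Angpt2 (1.23) and Vegfa (0.64) rose and Timp3 (-0.48) and Vegfb (-0.53) fell. The summed signal of these factors was 11529.8 to 12335.8 in controls and 19520.3 to 28121.8 with DES, with no overlap. That of all genes did not overlap either, at 14254159.7 to 14786058.9 in controls and 15348240.6 to 18218707.5 with DES. A sum is weighted to the brightest members, and the median log2 change of these factors was 0.25. The Vegfb call was lost under the replicate block (adjusted p = 0.0635) and without control replicate 1 or 2 or DES replicate 3 or 4 (adjusted p = 0.0836 to 0.166).

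Of 18 markers of leukocytes and macrophages, 4 rose and 1 fell, with a median log2 change of 0.51. C1qa, a chain of the first complement component made by macrophages, had 1824.6, 1505.1 and 1706.9 in controls and 2774.3, 2814.4, 4614.1 and 5223.6 with DES (log2 change 1.14, adjusted p = 0.000113). The other C1q chains rose as well, C1qc by 0.90 and C1qb by 1.06, as did Cd14 by 0.60, and Cd74, a chaperone of antigen presentation, fell by 0.73. The Cd14 call was lost without control replicate 2 or 3 or DES replicate 2 (adjusted p = 0.0827 to 0.0945), and the Cd74 call without control replicate 1 or 3 or DES replicate 1 or 2 (adjusted p = 0.0587 to 0.0866). Without DES replicate 1, or with quantile normalization, 8 rose, and without DES replicate 2, 7 rose. The responses in BN were below the mean of ACI and COP for 15 of 18, and 12 of these were called (background 6.11%, and 8 on numbers 3 and 4 alone). The list medians were 0.51 in BN and 1.72 in both ACI and COP. Among 14 complement genes the 3 chains of C1q and Cd55 rose and C1r fell by 1.15. Cd55, which protects cells from complement, went from 44.9 or less in controls to 818.4, 781.3, 992.5 and 1045.8.

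**Figure D4:**
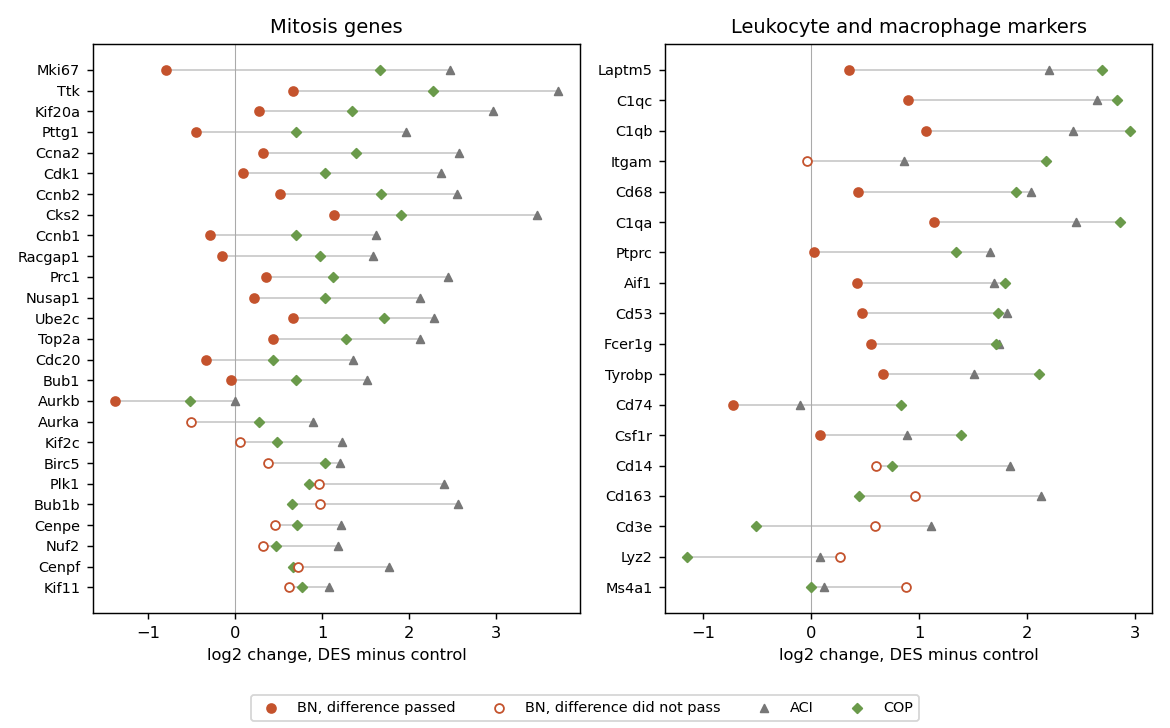
Log2 change with DES in BN (circles), ACI (triangles) and COP (diamonds) for 26 mitosis genes and 18 leukocyte and macrophage markers. Filled circles mark genes whose BN response differed from the mean of ACI and COP at an adjusted p under 0.05. All 26 mitosis genes and 15 of the 18 leukocyte markers lie below that mean in BN.

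Of 17 interferon-induced genes, 8 fell and 2 rose in BN, with a median log2 change of -0.72. Psmb9, a subunit of the immunoproteasome, had 1817.1, 1780.4 and 1732.8 in controls and 272.4, 454.0, 792.9 and 834.5 with DES (log2 change -1.70). Irf7, a transcription factor of the response, fell from 557.5 to 641.4 to 153.6 to 355.9 in BN (-1.32), whereas its changes were 1.17 in ACI and 0.32 in COP, a difference of -2.07 (adjusted p = 7.38e-06). Irf1 (-1.12), Psmb8 (-0.99) and Gbp2 (-0.85) fell, and Ifi27 (1.21) and Usp18 (0.67) rose, the latter not without control replicate 1 or 2 or DES replicate 3 or 4 (adjusted p = 0.0637 to 0.0903). On numbers 1 and 2 alone 11 fell and on numbers 3 and 4 alone 5.

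Of 12 fibroblast and matrix markers, 5 fell and 1 rose. Fbn1, fibrillin, fell from 927.1 to 1213.2 to 234.4 to 389.6 (-1.67) and Postn by 1.72, whereas Sparc rose from 673.3 to 962.0 to 1813.4 to 2530.2 (1.45). The falls numbered 1 on numbers 3 and 4 alone and 3 without control replicate 3, and 8 on numbers 1 and 2 alone and 7 under the replicate block or without DES replicate 3. Of 19 genes of the TGF-beta and activin family, Grem1 and Smad2 (-0.44) fell and Smad4 (0.31) rose, and the Smad2 call was lost under the replicate block (adjusted p = 0.0608) and 13 of 20 alternatives in all, among them leaving out control replicate 2 or 3 or DES replicate 2, 3 or 4 (adjusted p = 0.0536 to 0.13). That of Smad4 was lost on the BN arrays alone (adjusted p = 0.0977) and without DES replicate 4 (adjusted p = 0.05).

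Calcium-binding proteins held some of the largest changes of either sign, with 6 of 14 rising and 3 falling. Beside S100g and Pvalb, Hpca, hippocalcin, rose from 45.0 to 84.0 to 666.2 to 1327.4 and Calb1, calbindin-D28k, reached 296.5 to 457.7. The log2 change of Calb1 was 1.78 in BN, -1.16 in ACI and 0.29 in COP, a difference of 2.22 (adjusted p = 3.63e-06). Vsnl1, Calb2 (-2.48) and S100a1 (-1.03) fell. Of 22 ion channel genes, Grik1, the T-type calcium channel Cacna1g (3.73) and Kcnma1 (0.85) rose and 4 fell, among them Gabrb2, the sodium channel Scn9a (-1.73) and the potassium channel Kcnj6 (-2.27). Of 15 kallikrein and serpin genes, 4 rose and 3 fell (1 to 5 and 2 to 3 over the alternatives), with 12 of the 15 near the floor in a group. Beside Klk1b3 the risers Klk10 (1.31) and Klk1c10 (1.22) stayed near the floor. The other riser, Klk1 (1.05), lost its call on the BN arrays alone (adjusted p = 0.0639). It was also lost without control replicate 1 or DES replicate 4 (adjusted p = 0.076 and 0.0624). The Klk1c10 call was lost without control replicate 1 or DES replicate 4 (adjusted p = 0.0527 and 0.0537), and without DES replicate 4, 2 of the list rose. Serpine2 fell by 0.96, a call lost without control replicate 1 (-0.57, adjusted p = 0.144), on the BN arrays alone (adjusted p = 0.0823) and on numbers 3 and 4 alone (0.05, adjusted p = 0.955).

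Marker lists of tissue that could be carried along were checked. Of 8 neural lobe and nerve markers, Mbp (-0.98) and Nefl (-0.43) fell. The Nefl call was lost under 10 of 20 alternatives, among them leaving out control replicate 1 or 3 or DES replicate 1 or 2, and without control replicate 3 its change was -0.27 (adjusted p = 0.277). In all, 6 of the 8 were near the floor in at least 1 group. Of 4 red blood cell markers, Ahsp rose from 3.5 to 37.3 to 41.8 to 178.9, close to the floor, a call lost without control replicate 2 or 3 or DES replicate 4 (adjusted p = 0.0798 to 0.141), and Hbb read 7501.1, 13347.8 and 11143.2 in controls and 8445.5, 6937.7, 25653.8 and 29139.0 with DES. Hemoglobin was thus highest on DES replicates 3 and 4, and its part in the spread of the DES group was not tested.

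**Figure D5:**
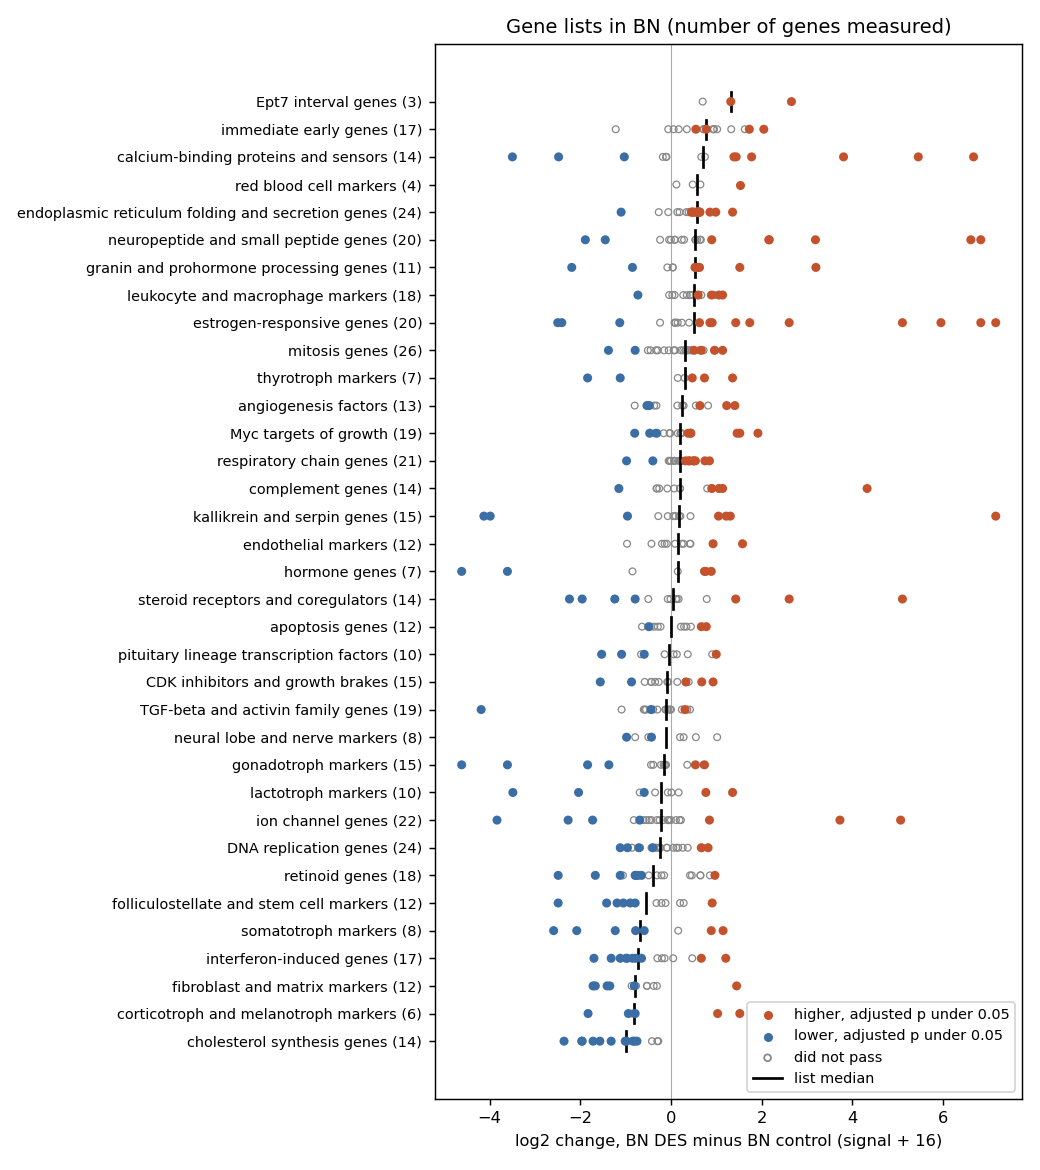
Log2 change in BN of every measured gene of 35 lists (rows, number of genes in brackets), ordered by the list median, which is the black tick. Red and blue points passed at an adjusted p under 0.05 and open points did not. Cholesterol synthesis has the lowest median, -1.0, and Ept7 interval genes the highest, 1.32.

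The response of BN differed from the mean response of ACI and COP for 2553 probe sets (8.22%), with BN above for 1366 (4.4%) and below for 1187 (3.82%). By gene these were 1749 (12.3%), 881 with BN above and 868 below, and without control replicate 1 the former were 583. In 1053 of the 1749 the BN change had the same sign as that mean and a smaller size, in 115 the same sign and a larger size, and in 581 the opposite sign. Genes called in BN and called the other way in both other strains numbered 31, of which 13 rose in BN and 18 fell.

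The largest differences with BN above were led by Olfm3, olfactomedin 3. In BN it rose from 696.8, 707.2 and 948.5 to 2049.3, 2206.6, 5863.7 and 3893.5, whereas it fell in ACI from 3375.7 ± 889 to 652.1 ± 74.2 and in COP from 2671.3 ± 286 to 637.9 ± 242 (SD, n = 3 and 4). The difference was 4.22 on the log2 scale (95% interval 3.52 to 4.93, adjusted p = 4.5e-08). For Cartpt, the precursor of the peptide CART, BN signals were low in both groups, 134.6 to 241.9 and 221.7 to 373.6, against control means of 2985.3 in ACI and 4887.1 in COP that fell with DES. The difference of 3.92 thus came with a control level in BN below that of the other strains, which was also so for Sema3e (3.27, a semaphorin), Dcn and Lum (2.92 and 2.88, the matrix proteoglycans decorin and lumican) and Acsm5 (2.72). Pkhd1l1 (2.83) was the case of a larger rise in BN, from 3.9 to 42.5 to 440.5 to 703.9, with log2 changes of 1.32 in ACI and 1.36 in COP, and its difference was not called on numbers 3 and 4 alone (1.97). For 6330403K07Rikl (2.93) the log2 change was -0.86 in BN, -4.98 in ACI and -2.59 in COP. In BN itself, 5 of these 8 genes passed, and Cartpt, Acsm5 and 6330403K07Rikl did not. The call of Lum in BN was lost under 8 of 20 alternatives, among them leaving out control replicate 1 or 3 or DES replicate 1 or 2 (adjusted p = 0.0554 to 0.135). The fall of 6330403K07Rikl passed under 7 alternatives, among them leaving out DES replicate 3.

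Of the 8 largest differences with BN below, 7 passed in BN itself. Nppc, Vip, Drd4 (a dopamine receptor) and Pdgfrl rose in all strains and least in BN. Drd4 went from 92.6 to 103.0 to 473.4 to 698.7 in BN, whereas its DES means were 4393.6 ± 552 in ACI and 3427.7 ± 291 in COP (SD, n = 4), a difference of -2.84. Vip reached a DES mean of 485.6 in BN, 1683.4 in ACI and 12150.9 in COP (difference -3.68), and Nppc 640.9, 7562.8 and 3177.2 (difference -3.70). Mki67, Mx1 (an interferon-induced antiviral protein) and Tnfrsf11b, which encodes osteoprotegerin, fell in BN and rose in both other strains, with Tnfrsf11b near the floor in BN in both groups. In BN the Mki67 groups overlapped, and its call was lost without control replicate 1 or 3 or DES replicate 3 or 4 (adjusted p = 0.0801 to 0.194). The Mx1 call in BN was lost without control replicate 2 or 3 or DES replicate 1 or 2 (adjusted p = 0.0607 to 0.133) and the Tnfrsf11b call without control replicate 1 (adjusted p = 0.104). C2cd4a read 345.2 to 421.9 with DES against 355.5 to 920.9 in BN controls, a change of -0.61 that did not pass (adjusted p = 0.0511) and did without control replicate 2 (-0.96, adjusted p = 0.00123) and under 5 other alternatives. It rose by 3.42 in ACI and 1.71 in COP. Its neighbor in name C2cd4b, chosen after its values were seen, fell by 0.92 in BN and rose by 2.41 and 0.76. Sostdc1, a secreted antagonist of Wnt and bone morphogenetic proteins chosen in the same way, rose in BN from 172.1 to 291.5 in controls to 417.8 to 663.0 with DES and fell in ACI and COP (difference 2.71, adjusted p = 1.36e-05).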

How the data were processed

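Total RNA of anterior pituitary was hybridized in 1 color to Affymetrix Rat Genome 230 2.0 arrays. The authors deposited 1 table of linear signal intensity per probe set, scaled so that the mean trimmed by 2% was 500.1 to 500.2 on every array. How probes were summarized is not given in the sources used here. Of 31099 probe sets, 57 controls were left out. Of the remaining 31042, 20826 had 1 gene symbol, 436 several and 9780 none. The probe set of highest mean over 21 arrays stood for each of 14217 genes. Symbols came from the platform annotation.

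Signals were converted to log2 after adding 16. Limma 3.58.1 (R 4.3.3) was fitted to 6 group means on all 21 arrays with a mean-variance trend, 22.2 total degrees of freedom and Benjamini-Hochberg adjustment over 31042 probe sets, within each contrast. The contrasts were DES against control in BN and the BN response minus the mean of the ACI and COP responses. All intervals are 95%. Single genes also had a two-sided exact permutation test over 35 splits. The fit was tested on simulated data.

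Deviations from the BN group means correlated at 0.138, 0.196 and 0.238 for arrays of the same replicate number and at -0.245 to 0.18 for other pairs, those between numbers 1 and 2 and one between 3 and 4 being positive too. The numbers come from titles, the fit above has no block, and blocked values are given beside calls they change. The members, the 35 gene lists (532 genes, 466 matched) and the rules were chosen with earlier results of these data known. Genes named were the 12 largest rises and falls with groups apart, the 8 largest called differences of each sign, hormone and Ept7 genes, up to 6 members per list with the smallest adjusted p, and members against their list's majority. Genes chosen after their values were seen were Esr1, Sostdc1, C2cd4b and those shown for their promoter match. Promoters came from RefSeq, GRCr8. Array number limits the precision.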

Additional observations from a re-analysis of the deposited data

Results flagged for a closer look

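Within the 4 BN DES arrays, 2 of 48 genes checked had 1 array far from the other 3. For Serpina3l, DES replicate 4 read 132.0 against 35.9 to 42.0, a gap of 0.894 of the group's range on the log2 scale. For Tnfrsf11b, DES replicate 2 read 20.8 against 2.2 to 3.4, a gap of 0.909. Both levels are near the floor, and about 1 in 20 groups is picked out in this way by chance.

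The response of BN differed from the mean of ACI and COP by the test of the difference itself for the named genes that follow. With BN above, the log2 differences were 4.22 for Olfm3, 3.92 for Cartpt, 3.27 for Sema3e, 2.93 for 6330403K07Rikl, 2.92 for Dcn, 2.88 for Lum, 2.83 for Pkhd1l1 and 2.72 for Acsm5. Among the hormone genes they were 2.2 for Lhb, 2.03 for Tshb and 0.89 for Fshb. With BN below, they were -3.7 for Nppc, -3.68 for Vip, -3.17 for C2cd4a, -3.05 for Tnfrsf11b, -2.87 for Mx1, -2.86 for Mki67, -2.84 for Drd4 and -2.8 for Pdgfrl.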

How the results depend on the processing

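The count of 7012 probe sets called in BN ran from 4702 to 8005 over 19 of 20 alternatives, and fell to 4096 (1689 higher) when only the BN arrays were fitted with the replicate number as a block. Leaving out 1 BN array gave 5308 to 7287. Median centring, which compares arrays relative to their median, moved the split to 53.2% higher from 42.8%, and for the difference between strains to 39.6% from 53.5%. The difference, 2553 probe sets, ran from 1747 to 3610 over 18 alternatives, with 1747 to 2869 when 1 BN array was left out. The replicate block on all arrays gave 7417 and 3449, and of 211 named genes it changed the call of 8, among them Ccnb2, Vegfb and Smad2. Members of lists called, 170 to 203 with 1 array left out, stayed within 1.5 times of the count under every alternative. Under quantile normalization the log2 change turned negative for Hspa5 (-0.31) and Tshb (-0.59), both called lower, and, without a call, for Scg2 (-0.23), Cox4i1 (-0.17), Chgb (-0.12), Cpe (-0.12), Hsp90b1 (-0.1) and Cox6c (0 after rounding). On numbers 3 and 4 alone that of Serpine2 was 0.05. The causes were not tested. Of 32 single genes given the permutation test, 26 reached its smallest p, and 26 or 27 did so with 1 or 64 added, median centring or quantile normalization. Most of the 26 were the largest rises and falls, picked for groups that do not overlap, so this count adds no support. Leaving out an array makes the permutation test unable to reach 0.05, so it was not run in that way.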
